A study of Mus musculus with 16 samples.

Results

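The classical MHC class I pathway was followed through 10 genes, taken by symbol from the 24411 genes of the deposited tables: the heavy chains H2-K1 and H2-D1, the light chain B2m, the peptide transporter subunits Tap1 and Tap2, the loading factor Tapbp, the trimming enzyme Erap1, the immunoproteasome subunits Psmb8 and Psmb9, and the transactivator Nlrc5. All 10 passed the filter on low counts. In this pathway the proteasome cuts cytosolic proteins into peptides, the TAP transporter carries them into the endoplasmic reticulum, and tapasin and its partners load trimmed peptides onto a heavy chain held by beta-2-microglobulin, which then shows them to CD8 T cells at the cell surface. Transcription of several of these genes is driven by NLRC5 and, after interferon, by IRF1 among others. Neuroblastoma with high MYCN is known for low surface class I, which is why the level of each step is of interest in a mouse model of the disease.

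RNA-Seq was available for 16 mouse libraries in 5 groups. The transgenic groups were homozygous for Th-MYCN, a human MYCN gene under the tyrosine hydroxylase promoter on a 129/SvJ background, so that transgene expression depends on cells in which that promoter is active. Runx1t1 het stands for heterozygous carriers of a knockout allele from the CBB6-Runx1t1tm1Fc/H line, whose origin is mixed. Celiac ganglia came from mice 2 weeks old. Below, WT and het refer to Runx1t1, wild type or heterozygous, and the ganglia fell into 4 transgene-free WT, 3 transgene-free het, 3 MYCN WT and 2 MYCN het libraries. The fifth group was 4 tumors, homozygous for Th-MYCN and WT for Runx1t1, for which the labels give no age. Tumors therefore differed from ganglia in tissue, cell make-up and possibly age and mix of sexes as well as in malignancy, and these cannot be told apart. The 13 sympathetic neuron markers were above 0 in every library. Their summed level was 2126 to 3620 TPM (a transcript level scaled for length and library size) in tumors and 6307 to 18436 TPM in ganglia.

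Depth ran from 10692299 to 38618757 counts per library. It was under 20000000 in 6 libraries, all of them ganglia. Transgene-free WT replicate 2, the shallowest of these, stood apart and held lymphocyte RNA: its 17 lymphocyte markers summed to 1514 TPM, against 4.89 to 33.1 TPM in the 15 other libraries. Its myeloid markers summed to 2468 TPM and its endothelial ones to 714 TPM, above the 74.5 to 273 TPM and 95.8 to 437 TPM of the 6 other transgene-free ganglia. Its glial sum was 651 TPM, below their 1532 to 2391 TPM, and its sympathetic neuron sum was 6307 TPM, below their 11188 to 18436 TPM. Its Cd79a, a chain of the B cell receptor complex, was at 218 TPM and its Cd3e, a chain of the T cell receptor complex, at 75.5 TPM. Results of the 10 genes are therefore given with this library and without it, and group means and spreads are given without it unless stated.

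Of the 10 genes, 7 lie on chromosome 17, and 4 of these are side by side. In GENCODE vM21 (GRCm38) the MHC cluster runs from Tapbp (chr17:33915899-33929292) and H2-K1 (chr17:33996017-34000347) through Psmb9 (chr17:34181987-34187764), Tap1 (chr17:34187553-34197225), Psmb8 (chr17:34197721-34201454) and Tap2 (chr17:34203527-34216321) to H2-D1 (chr17:35262730-35267499). H2-K1 and Psmb9 are on the minus strand and the others on the plus strand. Outside the cluster lie B2m (chr2:122147686-122153083), Erap1 (chr13:74639568-74693201) and Nlrc5 (chr8:94434356-94527272), all on the plus strand. Psmb9 and Tap1 overlap head to head by 212 exon bases, which is 5.79% of the exon bases of Psmb9 and 3.87% of those of Tap1. Erap1 shares 834 exon bases (11.5%) with Cast on the opposite strand, and Tapbp shares 149 exon bases (4.11%) with Zbtb22 on the same strand. Antisense genes that are not in the deposited table cover 24.9% of the exon bases of Tapbp (Gm19412), 14.7% of those of Psmb8 (Gm20496) and 14.1% of those of Tap2 (Gm15821). Whether counting used the strand is not given in the sources used here, so reads in these overlaps are uncertain. H2-D1 shares 4.64% of the 100-base windows of its transcript with other class I genes (H2-Q1, Gm7030, H2-T23 and Gm11127), whose reads RSEM shares out, while H2-K1 shares none. Reads were aligned to the mouse reference genome, whereas the Runx1t1 line was of mixed origin. Which alleles of the H2 genes each mouse carried is not given in the sources used here. Any effect of alleles on the reads assigned to these genes was not tested.

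Promoter sequences from RefSeq (GRCm38.p6) were matched for 8 of the 10 genes, all but Tap2 and Nlrc5. They were searched on both strands for the interferon-stimulated response element core (ISRE, GAAANNGAAA), the gamma interferon-activated site (GAS, TTCNNNGAA), the E-box bound by MYC proteins (CACGTG) and the NF-kB site. Windows of 30 bases that hold a match, other than the E-box of Erap1 (from base -30), are shown 5′ to 3′ on the strand of the gene, because B2m and H2-K1 did not pass the tumor comparison below while H2-D1, Erap1 and Psmb8 did. Bases are counted from the RefSeq start of each gene, which for Erap1, H2-D1 and Psmb8 lies inside the GENCODE span given above. The matched letters are in capitals, and a match describes letters and not binding.
B2m, chr2:122147545-122147574, plus strand, from base -142, ISRE core then NF-kB site: catGAAACTGAAAatgGGAAAGTCCCtttg
H2-K1, chr17:34000439-34000468, minus strand, from base -121, NF-kB site: gcccagggctGGGGATTCCCcatctccaca
H2-D1, chr17:35262913-35262942, plus strand, from base -181, NF-kB site: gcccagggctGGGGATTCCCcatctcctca
Erap1, chr13:74639839-74639868, plus strand, from base -14, ISRE core: ccaccttcacTTTCACTTTCggtcccgggc
Psmb8, chr17:34198088-34198117, plus strand, from base -107, GAS: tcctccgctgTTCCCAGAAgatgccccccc

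An ISRE core was found in 2 of the 8 genes (B2m and Erap1), against 3.44% of 32851 promoter windows of the same length as those searched. The searched windows are longer than the sequences shown above: that of B2m ran from base 122147437 to base 122147736 of its chromosome. The 32851 windows belong to 27025 genes, so these shares are per window and not per gene. The NF-kB site was found in 3 (B2m, H2-K1 and H2-D1), against 4.51% of windows. GAS was found in 1 (Psmb8), against 8.3%, and the E-box in 1 (Erap1), against 7.15%. H2-K1 and H2-D1 held the same NF-kB letters, as the sequences above show.

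In ganglia the molecules that reach the cell surface had the highest levels of the 10 genes. In the 6 transgene-free ganglia without replicate 2, H2-D1 was at 217 ± 74.2 TPM (SD, n = 6), B2m at 214 ± 38.4 TPM and H2-K1 at 109 ± 29.5 TPM. Tapbp, which holds empty class I molecules at the transporter, was at 92.0 ± 5.89 TPM and had the smallest spread for its level. The transporter was lower, with Tap2 at 18.9 ± 3.53 TPM and Tap1 at 12.4 ± 3.10 TPM, and so was Erap1, the aminopeptidase that trims peptides to fit the groove, at 12.2 ± 1.65 TPM. Psmb8 and Psmb9 are catalytic subunits that replace Psmb5 and Psmb6 when the immunoproteasome is built. Psmb8 was at 39.5 ± 6.27 TPM and Psmb9 at 5.81 ± 2.74 TPM, so that these 2 subunits were at different levels in the same ganglia. Nlrc5, the activator of class I promoters, was the lowest at 1.87 ± 0.511 TPM. In this order H2-D1 and B2m did not differ beyond their spread, nor did H2-K1 and Tapbp, or Tap1 and Erap1.

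**Figure D1:**
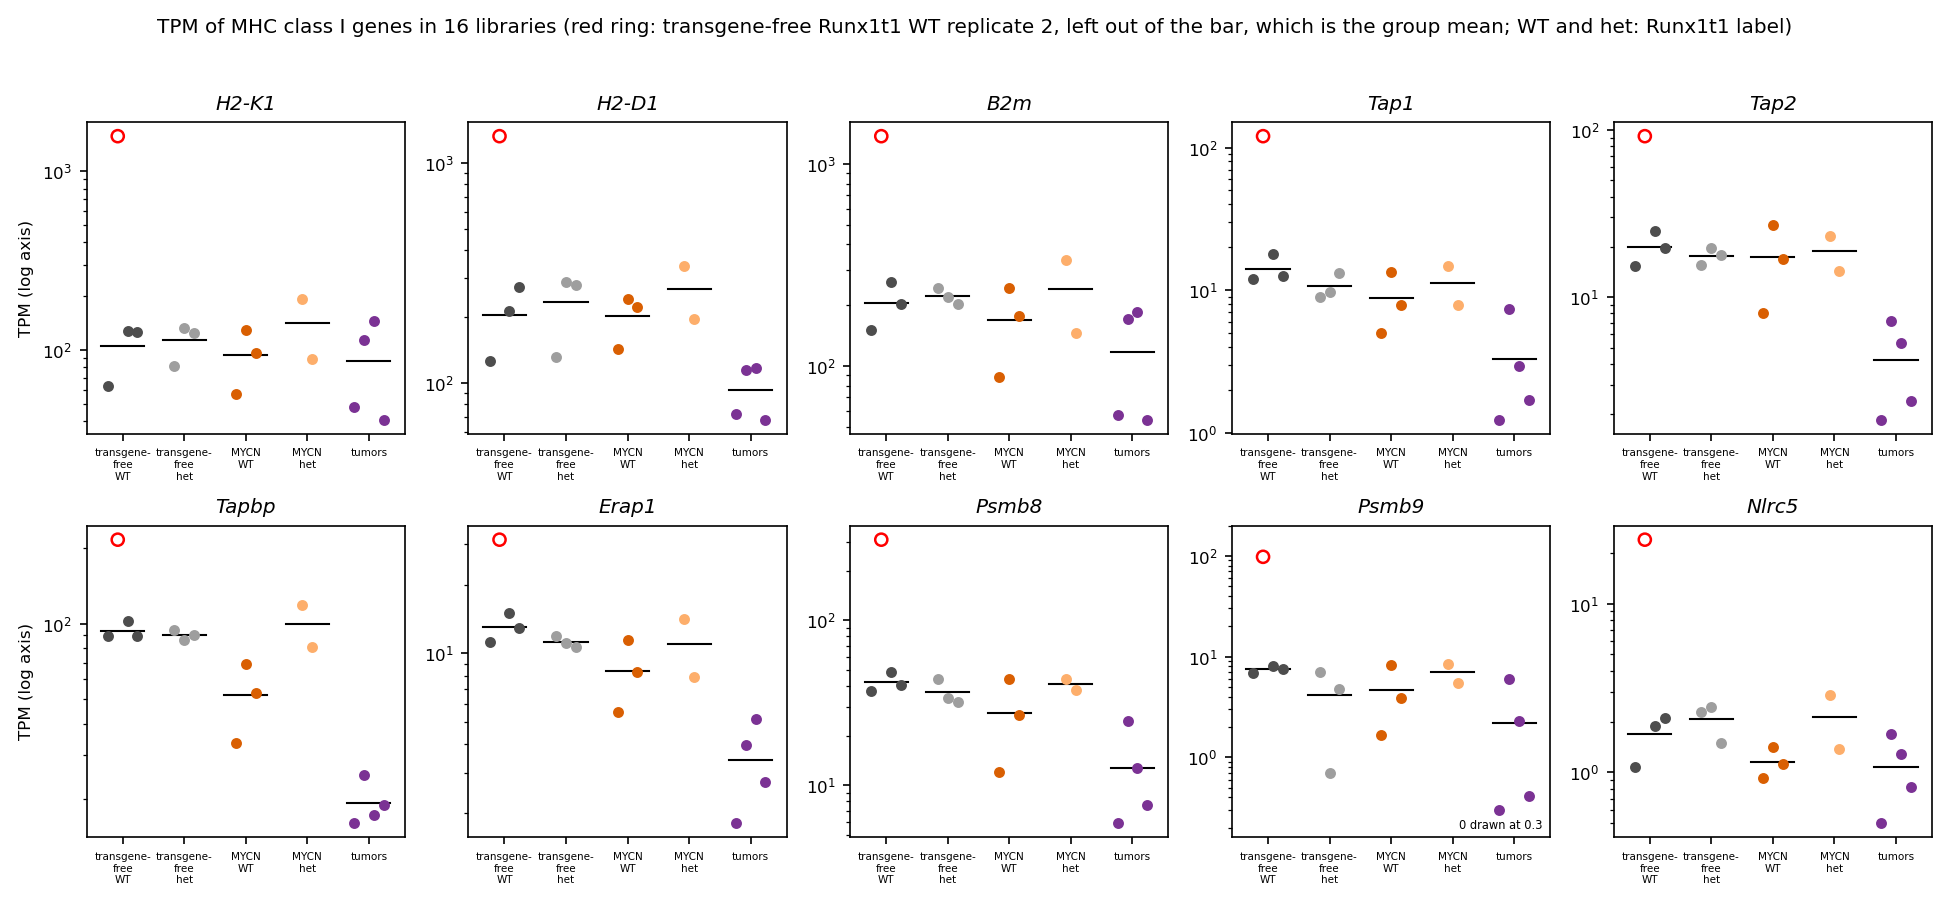
TPM of each of the 10 genes (log axis) in the 16 libraries, 1 point per library, grouped by transgene and Runx1t1 label (WT or het); the bar is the group mean without the ringed library. The ringed library, transgene-free WT replicate 2, is the highest of all 16 in each panel, and the 4 tumors are the lowest for Tapbp, at 16.1 to 24.9 TPM.

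Replicate 2 had the highest value of all 16 libraries for each of the 10 genes. Psmb9 was 16.8 times the mean of the 6 other transgene-free ganglia in it (97.7 TPM), H2-K1 14.4 times (1571 TPM) and Nlrc5 12.8 times (23.9 TPM). Tap1 was 9.73 times the mean, Psmb8 7.81 times, B2m 6.44 times, H2-D1 6.08 times and Tap2 4.87 times. The smallest excesses were those of Erap1, 2.58 times, and Tapbp, 2.35 times. The order of the heavy chains was turned in this library, with H2-K1 above H2-D1 (1320 TPM). The 7 class II presentation genes, which are restricted to antigen-presenting cells, summed to 7275 TPM in it and to between 61.5 and 338 TPM elsewhere. In bulk RNA, fewer cells of a type and less RNA per cell cannot be told apart, and this holds for every comparison that follows.

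Tumors against transgene-free ganglia asked which steps of the pathway were lower in established tumors than in ganglia without the transgene. The loading factor Tapbp, both transporter subunits, Erap1, Psmb8 and the heavy chain H2-D1 fell in tumors. H2-K1, B2m, Psmb9 and Nlrc5 did not pass the test. With all 16 libraries, 6 of the 10 genes were lower at an adjusted p under 0.05 (edgeR quasi-likelihood test, Benjamini-Hochberg adjustment over all genes), beside 30.9% of 16665 genes lower and 30.6% higher. Without replicate 2 the 6 called genes were the same, beside 31.7% of 16533 genes lower and 33.4% higher. DESeq2 called 5 of them with all libraries, where it gave no adjusted p to Tap1, Psmb9 and Nlrc5 in any comparison, and all 6 without replicate 2. The median log2 fold change of the 10 genes was -1.75 with all libraries and -0.98 without replicate 2, while that of all genes tested was -0.06 and 0.01. The labels do not say that replicates came from separate animals or litters, so p-values measure the spread between these samples.

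The scale matters for reading single levels. TPM of tumors lay below TPM of ganglia for genes in general: without replicate 2 the median log2 ratio of mean TPM was -0.46 over the tested genes, whereas the median edgeR log2 fold change was 0.02 over the same genes. Fold changes below are from edgeR, on normalised counts, and levels are in TPM. With TPM every tumor was below every transgene-free ganglion for 6 of the 10 genes, beside 37.1% of genes without replicate 2 (30.9% with it). With normalised counts this held for 3 of them (Tap2, Tapbp and Erap1), beside 25.9% (21.5% with replicate 2).

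Tapbp, the gene for tapasin, gave the clearest separation. Its level was 89.4, 103 and 89.0 TPM in transgene-free WT ganglia (replicates 1, 3 and 4), 216 TPM in replicate 2, and 94.5, 86.3 and 90.4 TPM in the het ones. In tumors it was 16.1, 24.9, 17.3 and 19.0 TPM. All tumors were below all ganglia of every group, in TPM and in normalised counts. On the normalised scale Tapbp was the 1 gene of the 10 for which this held, beside 17.9% of genes without replicate 2 (16.1% with it), and in TPM it was 1 of 4, beside 28.1% (24.5%). The fold was 4.09 lower in tumors (log2 fold change -2.03 ± 0.29 (SE), adjusted p = 4.40e-05 by edgeR), and 3.45 lower without replicate 2 (-1.79 ± 0.19, adjusted p = 4.51e-06).

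The transporter fell with it. Tap2 was between 15.5 and 25.0 TPM in the 6 transgene-free ganglia, with 91.8 TPM in replicate 2, and at 1.85, 7.18, 5.31 and 2.4 TPM in the 4 tumors. No tumor reached the lowest transgene-free ganglion. Tap2 was 4.64 times lower (log2 fold change -2.22 ± 0.57, adjusted p = 0.00392 by edgeR) and 3.25 times lower without replicate 2 (-1.70 ± 0.40, adjusted p = 0.00226). Tap1 was between 9.00 and 17.8 TPM in the 6 ganglia and at 1.23, 7.32, 2.92 and 1.68 TPM in tumors, where replicate 2 stood above the other 3. The tumors lay below these ganglia in TPM, but in normalised counts tumor replicate 2 reached their range (11.7 CPM, normalised counts scaled to library size, against a lowest ganglion of 10.3 CPM). Tap1 was 4.76 times lower (-2.25 ± 0.74, adjusted p = 0.0165 by edgeR) and 2.68 times lower without replicate 2 of the ganglia (-1.42 ± 0.47, adjusted p = 0.0164 by edgeR). With all libraries, leaving out tumor replicate 4 ended the call of Tap1 (adjusted p = 0.05003 by edgeR). A depth term in that fit ended the calls of Tap1 (adjusted p = 0.0570 by edgeR), Psmb8 (0.0884) and H2-D1 (0.0904), whereas without replicate 2 of the ganglia it kept all 3.

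Erap1 ran from 10.6 to 15.1 TPM in the 6 transgene-free ganglia and was at 31.4 TPM in replicate 2. In tumors it was at 1.81, 3.98, 5.16 and 2.74 TPM, below all of them on both scales. The fold was 3.10 lower (log2 fold change -1.63 ± 0.36, adjusted p = 0.00134 by edgeR) and 2.59 lower without replicate 2 (-1.37 ± 0.28, adjusted p = 0.000814). Tapbp, Tap2 and Erap1 kept an adjusted p under 0.05 in all 24 alternatives run for this comparison with all libraries, leaving out each library among them.

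The immunoproteasome subunits differed in how far the data could separate them. Psmb8 was between 32.2 and 48.5 TPM in the 6 ganglia and at 5.89, 24.5, 12.8 and 7.65 TPM in tumors, which stayed below the ganglia in TPM but reached their range in normalised counts through tumor replicate 2. Psmb8 was 3.70 times lower (log2 fold change -1.89 ± 0.65, adjusted p = 0.0217 by edgeR) and 2.22 times lower without replicate 2 of the ganglia (-1.15 ± 0.40, adjusted p = 0.0213 by edgeR). Leaving out tumor replicate 1 or 4 ended this call, with adjusted p values from 0.0568 to 0.0646 with or without replicate 2 of the ganglia. Psmb9 rested on few reads, 0 to 75 counts per tumor. It was at 0, 6.04, 2.27 and 0.41 TPM in tumors, and in the transgene-free het ganglia it was at 7.01, 0.70 and 4.71 TPM. These ranges overlapped, and its log2 fold change did not pass with all libraries (-1.87 ± 1.14, adjusted p = 0.168 by edgeR) or without replicate 2 (-0.81 ± 0.95, adjusted p = 0.468).

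Of the heavy chains, H2-D1 passed the test and H2-K1 did not. H2-D1 was at 125, 211 and 273 TPM in transgene-free WT ganglia (1320 TPM in replicate 2), at 131, 287 and 277 TPM in the het ones, and at 72.0, 114, 116 and 67.9 TPM in tumors. The tumors were below these ganglia in TPM and overlapped with them in normalised counts. H2-D1 was 2.72 times lower in tumors (log2 fold change -1.44 ± 0.56, adjusted p = 0.0371 by edgeR) and 1.70 times lower without replicate 2 (-0.77 ± 0.29, adjusted p = 0.0309). This was the least stable of the 6 calls: leaving out tumor replicate 1, 2, 3 or 4, or transgene-free het replicate 3 or 4, ended it with all libraries, at adjusted p values up to 0.0922 over the alternatives. Without replicate 2 of the ganglia, a replicate block ended the call of H2-D1 as well.

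H2-K1 was at 62.5, 127 and 125 TPM in transgene-free WT ganglia (1571 TPM in replicate 2) and at 81.2, 133 and 125 TPM in the het ones. Tumors were at 47.8, 114, 145 and 40.8 TPM, so that replicates 1 and 4 were below all 6 ganglia and replicate 3 above them. The log2 fold change was -1.02 ± 0.77 with all libraries (adjusted p = 0.265 by edgeR) and 0.13 ± 0.37 without replicate 2 (adjusted p = 0.776), a change of sign that came from leaving out 1 library; in TPM the mean of the tumors stayed below that of the ganglia. B2m, the light chain shared by all class I molecules, ran from 151 to 261 TPM in the 6 ganglia. It split in the tumors in the same way as H2-K1, with 57.5 and 54.2 TPM in replicates 1 and 4 and 171 and 186 TPM in replicates 2 and 3. Its log2 fold change was -1.07 ± 0.61 with all libraries (adjusted p = 0.141) and -0.39 ± 0.39 without replicate 2 (adjusted p = 0.399 by edgeR).

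Nlrc5 was at 0.50, 1.69, 1.29 and 0.82 TPM in tumors and at 1.07 to 2.43 TPM in the 6 ganglia. The ranges overlapped. Its log2 fold change was -1.45 ± 0.76 with all libraries (adjusted p = 0.110 by edgeR) and -0.34 ± 0.36 without replicate 2 (adjusted p = 0.425).

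**Figure D2:**
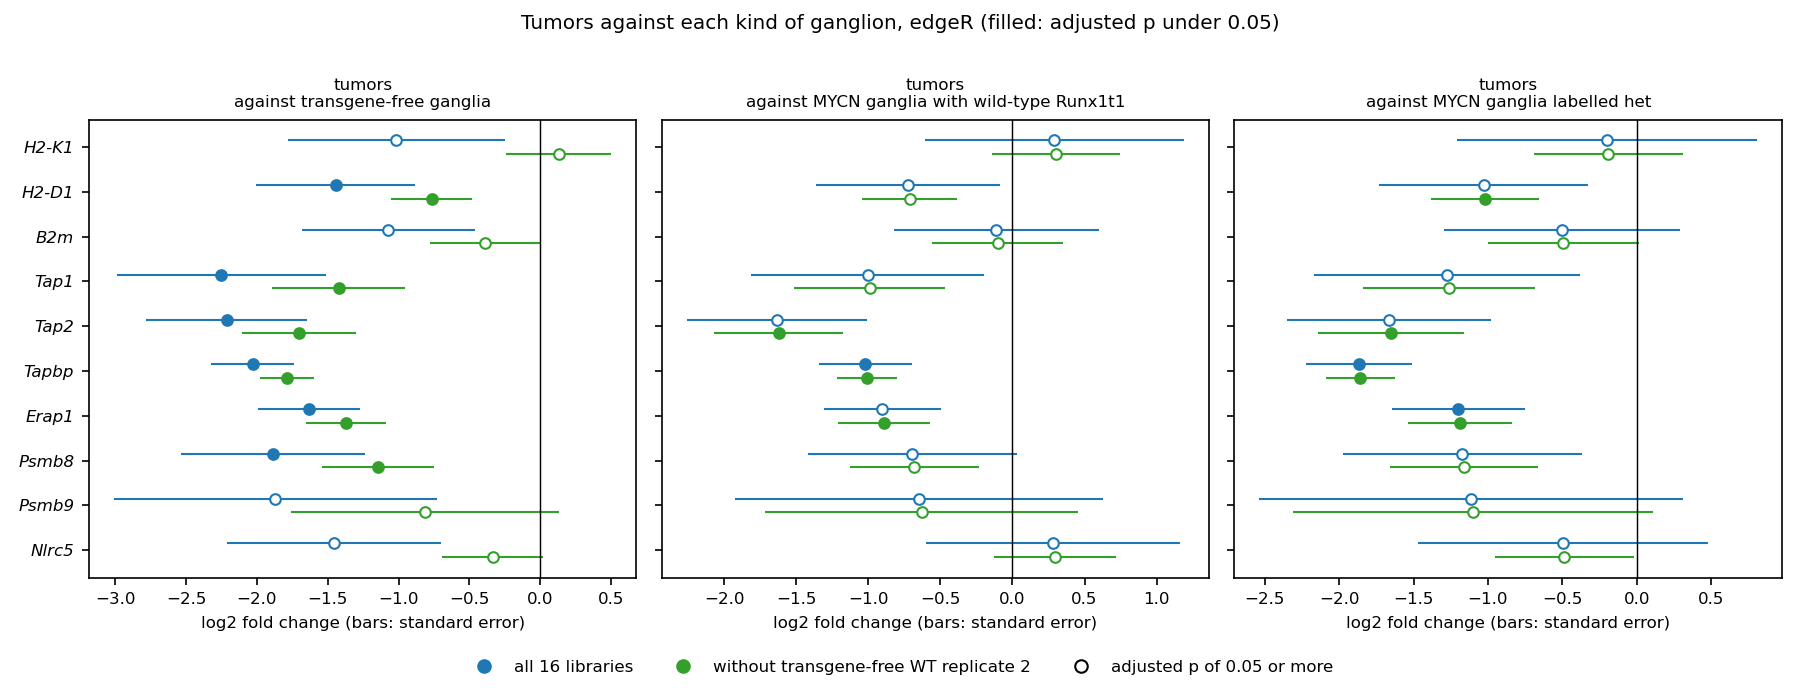
edgeR log2 fold change (x axis, bars are the standard error) of the 10 genes in tumors against transgene-free, MYCN WT and MYCN het ganglia, with all 16 libraries (blue) and without transgene-free WT replicate 2 (green); filled points have an adjusted p under 0.05. Tapbp is filled in all 3 panels in both colours, and H2-K1, B2m, Psmb9 and Nlrc5 are open throughout.

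Tumors against MYCN ganglia compared the tumor with ganglia that carried the transgene but had not become tumors. The tumors are the same 4 libraries in each comparison, so the results are not independent of those above. Against MYCN WT ganglia, Tapbp was lower with all 16 libraries and none of the other 9 genes passed, beside 20.5% of genes lower. Without replicate 2 of the transgene-free ganglia, which is in neither group but enters the shared fit, Tapbp, Tap2 and Erap1 were lower, beside 22.5% of genes. Tapbp was at 33.4, 69.4 and 53.2 TPM in these ganglia, above each tumor, and was 2.01 times lower in tumors (log2 fold change -1.01 ± 0.21, adjusted p = 0.00238 by edgeR without replicate 2). With all libraries it was 2.03 times lower (-1.02 ± 0.32, adjusted p = 0.0263 by edgeR), and leaving out MYCN WT replicate 3 or 4, or tumor replicate 1, 3 or 4, ended this call, with adjusted p values up to 0.136.

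Tap2 was at 7.99, 27.2 and 16.8 TPM in MYCN WT ganglia and was 3.08 times lower in tumors without replicate 2 (log2 fold change -1.62 ± 0.45, adjusted p = 0.0118 by edgeR; 0.0574 with all libraries). Erap1 was at 5.52, 11.4 and 8.26 TPM and was 1.85 times lower (-0.89 ± 0.32, adjusted p = 0.0391 without replicate 2 by edgeR; 0.10 with all libraries). Leaving out MYCN WT replicate 3 ended the call of Tap2 (highest adjusted p over the alternatives 0.0778), and leaving out it, MYCN WT replicate 4, tumor replicate 1 or 4 or any of 4 transgene-free libraries ended that of Erap1 (highest 0.184). Without replicate 2, a fit of only the groups compared ended both calls (adjusted p = 0.0678 for Tap2 and 0.129 for Erap1 by edgeR), and a replicate block or a sex term ended that of Erap1. Replicate 1 of these ganglia had the lowest value of the 3 for each of the 10 genes. It was the 1 of the 3 with under 20000000 counts (11240429). Its endothelial markers summed to 56.4 TPM, against 294 TPM in replicate 3 and 152 TPM in replicate 4, and its PRC2 core genes to 172 TPM, against 64.5 and 113 TPM. The part of depth and of these genes in the levels of the class I genes was not tested.

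Against MYCN het ganglia, Tapbp and Erap1 were lower with all libraries, beside 23.5% of genes. Without replicate 2 of the transgene-free ganglia, H2-D1 and Tap2 were lower as well, beside 25.0% of genes, and a fit of only the groups compared ended the calls of Tap2 (adjusted p = 0.0536 by edgeR) and Erap1 (0.0720). Tapbp was at 119 and 80.6 TPM in the 2 ganglia and was 3.63 times lower in tumors (log2 fold change -1.86 ± 0.23, adjusted p = 4.12e-05 by edgeR without replicate 2). H2-D1 was at 341 and 195 TPM and was 2.03 times lower (-1.02 ± 0.36, adjusted p = 0.0325 by edgeR without replicate 2). Leaving out MYCN het replicate 1, the higher of the pair for H2-D1, left Tapbp as the 1 gene that passed, in a fit where the remaining MYCN het library is assumed to vary like the other groups. Leaving out tumor replicate 1 or 4 also ended the call of H2-D1, for which the highest adjusted p over the alternatives was 0.337 (edgeR). Both ganglia of this group had under 20000000 counts, whereas all tumors had more, so depth and group cannot be told apart here.

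Among ganglia, no comparison gave a class I gene past the threshold with edgeR. MYCN against transgene-free ganglia of the WT label had log2 fold changes from -2.71 to -1.08 with all libraries, where 6 of the 10 had an unadjusted p under 0.05, beside 19.8% of all genes, and DESeq2 called 2 (H2-K1 and Tapbp). After adjustment edgeR called 0.936% of all genes in either direction. Without replicate 2 the values ran from -0.80 to 0.05, 1 gene had an unadjusted p under 0.05, beside 21.9% of all genes, and DESeq2 called 1, in each case Tapbp. After adjustment edgeR called 4.08% of all genes. So the large negative values rested on this library, whose marker sums are given above; their part was not tested. Tapbp was at 33.4 to 69.4 TPM in MYCN WT ganglia and at 89.0 to 103 TPM in the 3 remaining transgene-free ones. Every MYCN WT library was lower, beside 11.5% of all genes for which this held in TPM (4.16% with replicate 2). Its log2 fold change was -0.80 ± 0.23 (adjusted p = 0.0650 by edgeR without replicate 2).

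By edgeR the Runx1t1 label gave no called class I gene in either background. Tapbp was at 80.6 and 119 TPM in MYCN het ganglia, above the 33.4 to 69.4 TPM of MYCN WT ganglia, beside 20.9% of all genes with both het libraries higher in TPM. MYCN het against MYCN WT ganglia gave log2 fold changes from 0.03 to 0.85 without replicate 2, with 1 unadjusted p under 0.05 (Tapbp, 0.85 ± 0.25, adjusted p = 0.171 by edgeR), which DESeq2 called. Of all genes 16.6% had an unadjusted p under 0.05, and edgeR called 0.00605% after adjustment. With all libraries the range was 0.03 to 0.85, with 1 unadjusted p under 0.05 (12.6% of all genes), 0 calls by DESeq2 and 0.012% of all genes called by edgeR. Transgene-free het against transgene-free WT ganglia ranged from -0.90 to 0.31 without replicate 2, with 0 unadjusted p under 0.05 (0.823% of all genes) and 0 calls by DESeq2. With replicate 2 in the wild-type group the range was -2.98 to -0.51, with 3 unadjusted p under 0.05 (4.12% of all genes) and 0 calls by DESeq2. MYCN against transgene-free ganglia of the het label ranged from -0.08 to 0.73, with 0 unadjusted p under 0.05 (1.45% of all genes, and 2.13% without replicate 2) and 0 calls by DESeq2. The interaction of transgene and Runx1t1 label ranged from 0.10 to 1.36 without replicate 2 and from 1.00 to 3.44 with it, each with 1 unadjusted p under 0.05 (7.51% and 5.62% of all genes) and 0 calls by DESeq2. In these last 3 comparisons edgeR called 0.0% of all genes, with or without replicate 2. With 2 to 4 ganglia a group, these values bound the differences only loosely: for Tap1 the standard error of the het comparison in MYCN ganglia was 0.63 on the log2 scale.

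Ratios within a library do not depend on its scaling. They were chosen after the values had been seen. In tumors against transgene-free ganglia, 4 of them were tested (exact two-sided permutation of libraries). None passed after adjustment over the 4 with all libraries (adjusted p from 0.109 to 0.200, exact test), whereas all 4 did without replicate 2 (0.0190 to 0.0476, exact test). Since the ratios were picked from these values, they are descriptions and the p-values support nothing. H2-D1 over H2-K1 was 1.51, 1.00, 0.80 and 1.67 in tumors, 1.61 to 2.22 in the 6 transgene-free ganglia, 1.77 to 2.51 in the 5 MYCN ganglia and 0.84 in replicate 2. Tumor replicate 3 had more H2-K1 than H2-D1, as did replicate 2 of the ganglia, and tumor replicate 4 lay in the range of the transgene-free ganglia. Any part of differing alleles in the ratios with H2-K1 or H2-D1 was not tested. B2m over H2-K1 was 1.2 to 1.5 in tumors, 1.62 to 3.01 in the 6 ganglia and 0.88 in replicate 2. The tumors lay below the 6 ganglia without overlap, and the 5 MYCN ganglia, at 1.55 to 1.89, were also above them.

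Tapbp over B2m was 0.28, 0.15, 0.09 and 0.35 in tumors, 0.39 to 0.59 in the 6 ganglia and 0.16 in replicate 2. The tumors lay below the 6 ganglia but overlapped with the 5 MYCN ganglia, at 0.29 to 0.55. The tumors with the most B2m, replicates 2 and 3, had the lowest ratios. Psmb8 over its constitutive counterpart Psmb5 was 0.05, 0.20, 0.11 and 0.05 in tumors and 0.15 to 0.28 in the 6 ganglia, ranges that overlapped through tumor replicate 2, and 0.09 to 0.23 in the 5 MYCN ganglia, which overlapped with the tumors too. It was 2.60 in replicate 2 of the ganglia, where Psmb8 exceeded Psmb5. Psmb9 over Psmb6 was 0 to 0.0223 in tumors and 0.00228 to 0.0269 in the 6 ganglia, and these ranges overlapped.

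**Figure D3:**
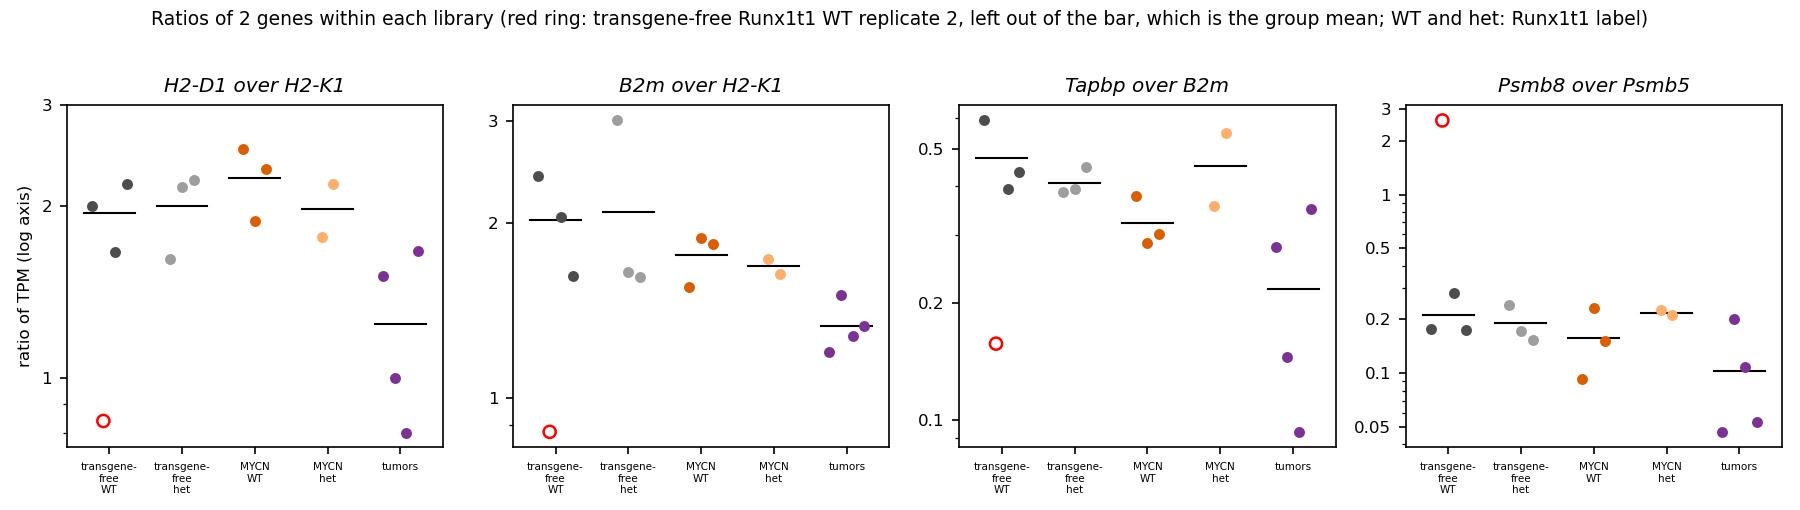
Ratio of the TPM of 2 genes in each library (log axis), grouped by transgene and Runx1t1 label (WT or het); the bar is the group mean without the ringed library, transgene-free WT replicate 2. B2m over H2-K1 is 1.2 to 1.5 in tumors and above that range in every ganglion but the ringed one.

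Other genes of the pathway were described by counts. Of 14 further class I pathway genes, 1 of which is also in the interferon list, 8 were lower and 1 was higher in tumors than in transgene-free ganglia by edgeR, beside 30.9% of all genes lower and 30.6% higher. The same numbers were found without replicate 2 (31.7% and 33.4% of all genes), with a median log2 fold change of -0.54. Apart from Psmb5 and Psmb7, the genes named from these lists passed in both fits against transgene-free ganglia. Their values are given without replicate 2, with those of all libraries where they differ by over 0.3. Lnpep, the endosomal aminopeptidase that trims peptides for cross-presentation, fell most (log2 fold change -2.04 ± 0.22, adjusted p = 5.14e-06 by edgeR without replicate 2). Irf1, the interferon-induced activator of class I genes, followed (-1.56 ± 0.26, adjusted p = 0.000138 by edgeR; -1.98 ± 0.43, adjusted p = 0.00124 with all libraries). Irf1 was at 23.9 to 32.0 TPM in the 6 ganglia and at 4.94, 9.59, 6.78 and 5.15 TPM in tumors, with no overlap. In TPM every tumor was below these 6 ganglia for 37.1% of all genes. Rfxap, a subunit of the RFX complex on MHC promoters, rose (0.76 ± 0.15, adjusted p = 0.000555 by edgeR). Among the 3 constitutive catalytic subunits, Psmb6 was called higher (0.26 ± 0.10, adjusted p = 0.0327 by edgeR), but in TPM its mean was lower in tumors (280.0 against 326 TPM), so its direction depends on the scaling. Psmb5 and Psmb7 had log2 fold changes of -0.18 ± 0.12 and -0.02 ± 0.09 and did not pass.

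Of 15 non-classical class I genes tested, 2 were higher and 2 lower without replicate 2 (3 lower with it), a smaller share in each direction than the 33.4% and 31.7% of all genes. H2-M3, which presents formylated peptides, fell (log2 fold change -1.51 ± 0.57, adjusted p = 0.0321 by edgeR; -1.99 ± 0.67, adjusted p = 0.0195 with all libraries), and so did Mr1, which presents vitamin B metabolites to MAIT cells (-1.73 ± 0.42, adjusted p = 0.00278). H2-Q10 rose (5.52 ± 1.53, adjusted p = 0.00645 by edgeR), which came from 1 tumor: replicate 3 was at 157 TPM and the other 3 at 0.39 to 1.88 TPM, within the range of the ganglia. Cd1d1, a lipid-presenting molecule, rose (0.82 ± 0.30, adjusted p = 0.0291 by edgeR). Of the 7 class II presentation genes, H2-DMa was lower (-2.62 ± 0.50, adjusted p = 0.000482 by edgeR; -3.11 ± 0.65, adjusted p = 0.000839 with all libraries) and the other 6 did not pass, both with and without replicate 2.

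Interferon receptors and some of the interferon response genes were also lower in tumors than in transgene-free ganglia. All 4 interferon receptor genes fell in tumors, with log2 fold changes without replicate 2 from -0.51 ± 0.11 for Ifnar1 to -1.02 ± 0.26 for Ifngr1 (adjusted p = 0.00360 by edgeR; -1.36 ± 0.38, adjusted p = 0.00682 with all libraries). Their summed level was 66.1 to 72.4 TPM in tumors and 149 to 174 TPM in the 6 ganglia. Of 21 interferon response genes, 10 fell and 1 rose, with and without replicate 2, beside 31.7% of all genes lower and 33.4% higher without it (30.9% and 30.6% with it). Oasl2 fell most (-3.25 ± 0.54, adjusted p = 0.000160 by edgeR), then Ifit1 (-2.68 ± 0.42, adjusted p = 9.58e-05). Ifi44 rose (3.79 ± 0.83, adjusted p = 0.00134 by edgeR; 2.90 ± 0.93, adjusted p = 0.0150 with all libraries), from 0.03 to 0.41 TPM in the 6 ganglia to 0.25, 5.52, 2.66 and 0.54 TPM in tumors, where replicate 1 stayed in the range of the ganglia. The 3 core genes of PRC2, a complex that silences chromatin, rose, Ezh2 most (3.67 ± 0.37, adjusted p = 2.97e-06 by edgeR), at 108 to 131 TPM in tumors and 9.47 to 18.6 TPM in the 6 ganglia. Against MYCN WT ganglia, 4 of the 21 interferon response genes were lower with or without replicate 2, a share near that of all genes (20.5% and 22.5%). Ifi44 was higher without it (3.37 ± 1.08, adjusted p = 0.0252 by edgeR) and did not pass with all libraries (adjusted p = 0.0608). The interferon receptors summed to 74.4 to 148 TPM in MYCN WT ganglia. Without replicate 2 no receptor gene passed against these (adjusted p from 0.0544 to 0.609 by edgeR). Against MYCN het ganglia, Ifnar1 and Ifngr1 were lower without replicate 2 (adjusted p = 0.0156 and 0.0403 by edgeR), and Ifnar2 and Ifngr2 did not pass.

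Cell markers moved with the tumor comparison too. All 9 glial markers and 7 of 8 fibroblast markers fell in tumors (Fbln1 rose), with and without replicate 2, and of 9 endothelial markers 5 fell (6 with it). Of all genes 31.7% fell and 33.4% rose without replicate 2 (30.9% and 30.6% with it). The glial sum was 42.5 to 51.9 TPM in tumors and 1532 to 2391 TPM in the 6 transgene-free ganglia, and the fibroblast sum was 232 to 572 TPM against 1736 to 7967 TPM. Of the 5 adrenal cortex markers that could be tested, 4 fell with and without replicate 2, and the sum of all 6 was 3.03 to 5.61 TPM in tumors and 10.2 to 97.9 TPM in the 6 ganglia (6.48 TPM in replicate 2). Myeloid markers went the other way: 10 of 14 rose without replicate 2 (6 with it), with a sum of 426, 1335, 845 and 830 TPM in tumors and 74.5 to 273 TPM in the 6 ganglia. Lymphocyte markers summed to 8.98, 33.1, 14.0 and 9.73 TPM in tumors, where at most 8 of the 17 markers were at 0 in a library, and to 5.35 to 16.6 TPM in the 6 ganglia. Of the 9 that could be tested without replicate 2, 3 rose, a share near that of all genes. Tumor replicate 2 had the highest myeloid and lymphocyte sums of the 4, and also the highest TPM of Tap1, Tap2, Tapbp, Psmb8, Psmb9 and Nlrc5, while H2-K1, H2-D1, B2m and Erap1 were highest in tumor replicate 3 in TPM. The part of these markers in the levels of the class I genes was not tested.

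**Figure D4:**
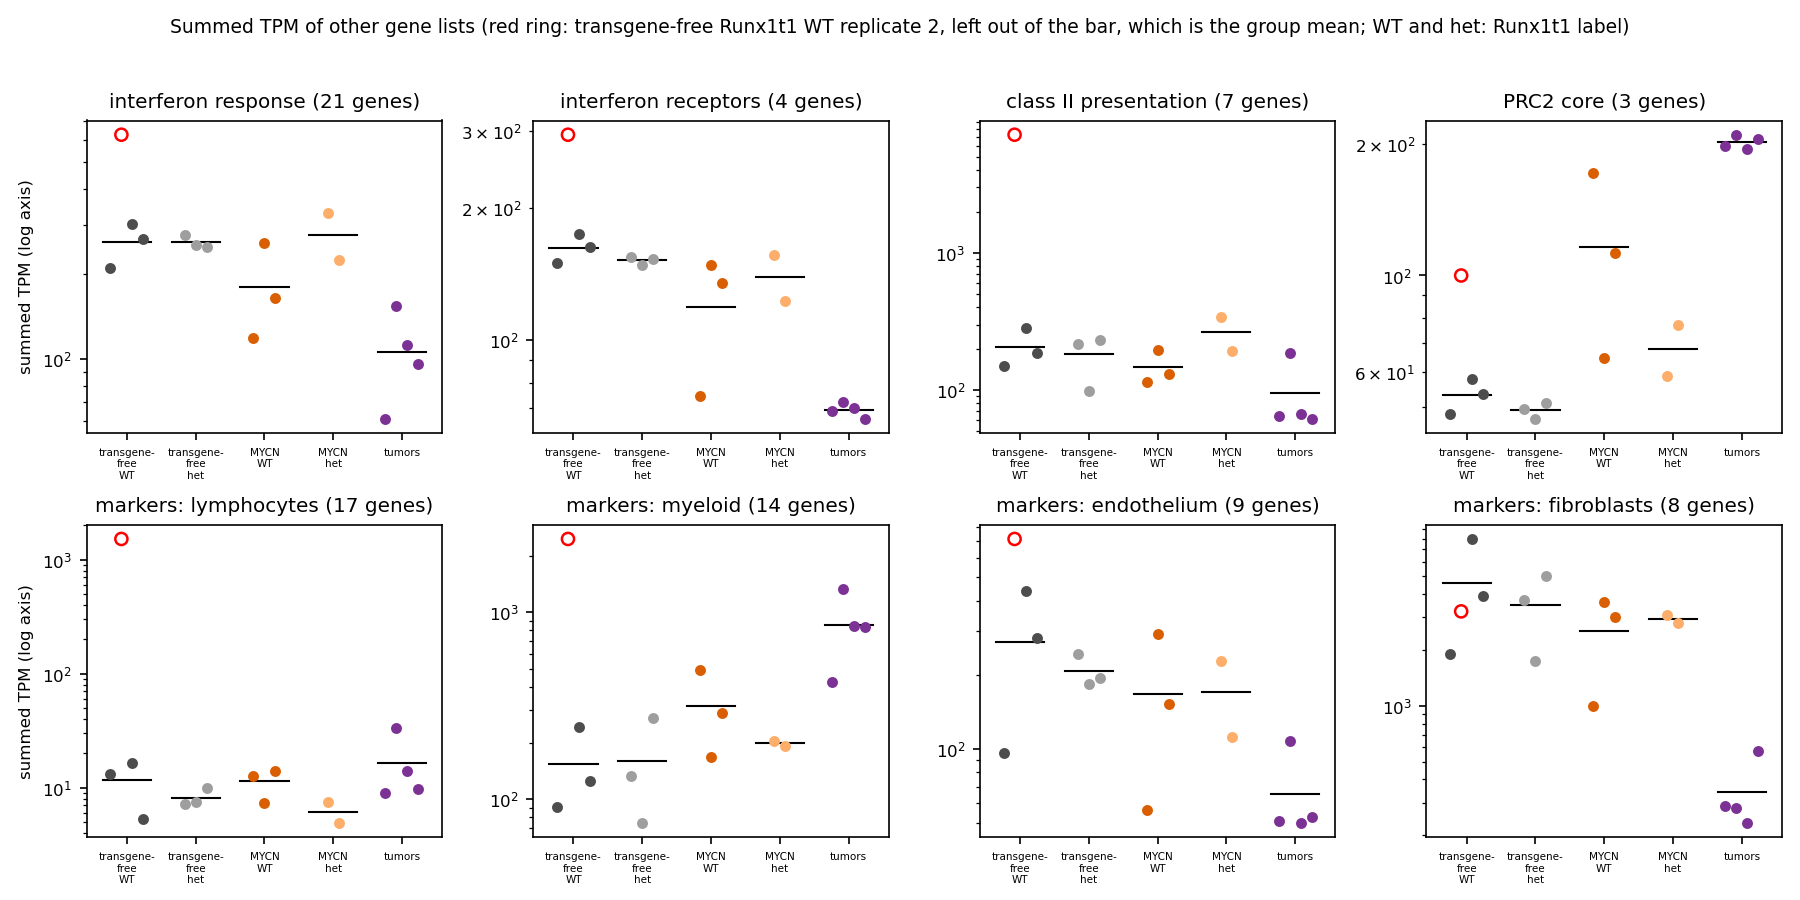
Summed TPM (log axis) of the genes of 8 lists in each of the 16 libraries, grouped by transgene and Runx1t1 label (WT or het); the bar is the group mean without the ringed library, transgene-free WT replicate 2. In tumors the interferon receptors sum to 66.1 to 72.4 TPM, just below the lowest ganglion (74.4 TPM, MYCN WT). The PRC2 core sums to 195 to 210 TPM in tumors, above every ganglion.

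The 10 genes varied together across libraries. Their 45 pairwise correlations of log2 CPM had a median Pearson r of 0.87 over the 16 libraries, from 0.55 to 0.97. Leaving out replicate 2 lowered the median to 0.73 (from 0.22 to 0.96), and leaving out the tumors as well, which left 11 ganglia, to 0.63 (from -0.12 to 0.91). The libraries share group, depth and cell make-up, so these are descriptions. Outside the 10, genes among those most like their mean profile over 16 libraries were Clec9a (r = 0.97), a receptor of cross-presenting dendritic cells, and Cd82 (r = 0.97). Without replicate 2 they were Ifih1 (r = 0.97), a sensor of double-stranded RNA, Parp14 (r = 0.96) and Ddx60 (r = 0.95). By Spearman correlation Ifih1 was first over the 16 libraries (rho = 0.96) and Epha2 first without replicate 2 (rho = 0.96).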

How the data were processed

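RNA-Seq of 16 mouse libraries (SMARTer Stranded Total RNA-Seq v2) was used. Per the study's methods and processing notes, the authors aligned reads with STAR (2.5) to mm10 and deposited RSEM (1.2.31) expected counts per gene, which are not normalised, and used SAMtools (1.3.1). The authors also deposited TPM, which RSEM scales for effective length and library. Whether strand was used is not given in the sources used here.

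Expected counts were rounded, filtered with filterByExpr and fitted with edgeR 4.0.16 (quasi-likelihood, TMM, all 5 groups in 1 fit; R 4.3.3), with Benjamini-Hochberg adjustment over all 16665 genes, or 16533 without transgene-free WT replicate 2, and a threshold of 0.05. DESeq2 1.42.0, other normalisations, filters, covariates and leaving out each library were alternatives. The procedure was tested on simulated data. Header "Hom" for Runx1t1 was read as wild type. Human MYCN is not in the mouse table and was not analysed here. Levels and ratios are in TPM, and 4 ratios were tested by exact permutation after their values had been seen.

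The 10 genes and all lists were chosen with earlier results of these data known. The rule for naming was all 10 genes, the up to 2 highest and 2 lowest called genes per list, and the genes most like the mean profile. Other genes named beside them (Ifi44, Psmb5, Psmb7, Cd79a, Cd3e, Fbln1 and the other members of short lists) were given where a count is 5 or fewer or to describe a library. A gene that the naming rule gives is not reported here.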

Additional observations from a re-analysis of the deposited data

Results flagged for a closer look

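Transgene-free WT replicate 2 stood far above the other 3 libraries of its group for 9 of the 10 genes. The measure is the gap from that library to the next one in TPM, divided by the whole range of the group. It was 0.957 for H2-K1, 0.876 for H2-D1, 0.910 for B2m, 0.946 for Tap1, 0.875 for Tap2, 0.892 for Tapbp, 0.959 for Psmb8, 0.988 for Psmb9 and 0.955 for Nlrc5, each above the 95% limit for a group of 4. Erap1 stayed under that limit. Chance gives about 1 in 20 such groups, and 20 groups of values were examined (10 genes in the transgene-free WT ganglia and in the tumors). All 9 came from the 1 library with lymphocyte RNA, and none from the tumors. The 10 genes varied together across libraries, so these 9 are not separate results. The share of all genes that this library would flag is not given here.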

How the results depend on the processing

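Counts of the 10 genes past the threshold moved with libraries left out, covariates and the set of libraries fitted. Against transgene-free ganglia (6 genes) a depth term gave 3 and leaving out 1 library gave 3 to 6, and without transgene-free WT replicate 2 (6 genes) leaving out 1 more gave 4 to 6. Against MYCN WT ganglia (1 gene) DESeq2 gave 2, a replicate block 3, a sex term 2, only libraries over 20000000 counts 4 and leaving out 1 library 0 to 3. Without replicate 2 (3 genes) a fit of only the groups compared gave 1 and leaving out 1 more 1 to 5. Against MYCN het ganglia (2 genes) no filter gave 1, a depth term 1, a sex term 5 and leaving out 1 library 1 to 4. Without replicate 2 (4 genes) a fit of only the groups compared gave 2 and leaving out 1 more 1 to 6. MYCN against transgene-free WT ganglia (0 genes) gave 2 with DESeq2 and 0 to 1 with 1 library left out, the 1 arising without MYCN WT replicate 3. The cause was not tested.

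The replicate block gave 6 genes against transgene-free ganglia with all libraries and 5 without replicate 2, where H2-D1 was lost. The labels give the numbers no meaning, and of 25 same-numbered pairs 7 had a correlation of deviations over 0.1 (from -0.32 to 0.32). All 4 pairs of transgene-free WT ganglia and tumors were among these (0.15 to 0.32), whereas none of the 3 pairs of transgene-free het ganglia and tumors was (-0.14 to 0.01), so the numbers were not taken as pairs. Of the log2 fold changes of single genes under the alternatives, 572 kept their side of the threshold, 39 lost it and 20 gained it, and none that was called turned. The fits without replicate 2, the depth restriction and the ratios were chosen after seeing the data. Psmb9 rested on 0 to 75 counts per tumor.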
